A study of Mus musculus with 38 samples.

Results

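Whole bone marrow of 9 mice with MLL-AF1p leukaemia was compared with that of 7 mice with MLL-ENL leukaemia, which are 16 of the 38 arrays of the series. The 16 arrays were taken by the cohort in their titles, and each array held RNA from 1 mouse. In both cohorts c-kit+ marrow progenitors had been infected with a retrovirus carrying the fusion oncogene and transplanted into lethally irradiated C57BL/6 recipients of either sex, and RNA was extracted with Trizol from cryopreserved marrow taken when the leukaemic mice were killed. The age of the mice, the time to disease, the virus backbone and the species of the fusion cDNA are not given in the labels, and the marrow of an irradiated recipient can also hold cells that do not carry the virus. The other 22 arrays (8 MLL-AF10, 5 MLL-GAS7 and 5 MLL-AF9 leukaemias and 4 samples of marrow from wild type C57BL/6 mice) entered the estimate of the spread and are quoted only for levels.

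MLL (mouse gene Kmt2a) is a histone methyltransferase that keeps Hox genes on in early blood cells, and leukaemia arises when its front part is fused to one of many partner proteins. AF1p is the older name of EPS15, an adaptor of clathrin-coated pits in the cytoplasm whose coiled coil joins fusion molecules to each other. ENL (mouse gene Mllt1) is a nuclear chromatin reader that works with the super elongation complex and the histone methyltransferase DOT1L, and the fusion brings that machinery to MLL target genes. The comparison therefore sets 2 classes of fusion partner beside each other in leukaemias made by the same procedure.

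All levels below are log2(intensity + 46.1) after the arrays were brought to a common median, and a difference of 1 on this scale is a 2-fold change. Where 3 levels are given for a cohort, they are its lowest, its median and its highest. Differences are MLL-AF1p minus MLL-ENL with the standard error (SE) of limma, and a gene was called at an adjusted p under 0.05 over all 13333 genes tested. Neither the labels nor the files say whether the mice of a cohort came from 1 pool of infected cells, so the p-values measure only the spread between mice within the groups, which the fit pools over all 38 arrays. With the 16 arrays alone 429 genes were called, 368 of them among the 608 reported below.

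Before shifting, array medians ran from 129.2 to 208.3 intensity units in MLL-AF1p and from 133.7 to 153.1 in MLL-ENL. Correlations of whole arrays ran from 0.895 to 0.966 within MLL-AF1p, from 0.933 to 0.967 within MLL-ENL and from 0.872 to 0.958 between them. The arrays MLL-AF1p_801 and MLL-AF1p_803 stood apart on the first principal component (44.3 and 60.1, which carried 21.8% of the variance), so values without both are given for the main counts and for genes that kept their call without each single array but not without these 2. A pattern of 2 levels shared by 10 probe sets, found in the leukaemia arrays, cut across all their cohorts, and the labels do not say what it is. A cut on its score put 16 arrays of the series in set 1 and 22 in set 2, with 4 MLL-AF1p and 4 MLL-ENL arrays in set 1 and 5 and 3 in set 2. The 4 normal arrays scored between the levels of the leukaemias (-0.887 to 0.093) and fell in set 2 by that cut. None of 5 signs of array quality differed between the cohorts by an exact 2-sided permutation test over 11440 assignments (adjusted p from 0.376 to 0.78). That test compares cohort means only. MLL-AF1p_801 and MLL-AF1p_803 had the highest medians of the 16 arrays (208.3 and 188 intensity units). MLL-AF1p_803 also had the highest 18S signal (10.75) and hybridisation controls (12.96, both log2). Whether array quality bears on the calls that depend on these 2 arrays was not tested. Xist was high in every mouse of both cohorts (means of 14.57 ± 0.205 in MLL-AF1p and 14.45 ± 0.224 in MLL-ENL, SD).

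MLL-AF1p and MLL-ENL leukaemias differed in 608 genes, 4.56% of those tested. Of these, 153 genes (1.15%) were higher and 455 (3.41%) lower in MLL-AF1p. The large differences leaned the other way, since 77 of the 132 called genes that differed at least 2-fold were higher in MLL-AF1p. At an unadjusted p under 0.05, 2675 genes passed. The values of the cohorts did not overlap for 128 genes, 0.96% of those tested, of which 120 were called (26 higher and 94 lower). The median difference of all genes was -0.09, with quartiles of -0.26 and 0.08. The shares of 4.56% called, 1.15% higher and 3.41% lower also stand beside the counts in every list below, and a gene can be in more than 1 list.

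The share of calls that were higher depended on how the arrays were scaled. It was 25.2% as reported, 41.3% without the shift (312 higher and 443 lower) and 41.8% after quantile normalization (284 higher and 395 lower). Without MLL-AF1p_801 and MLL-AF1p_803 there were 134 higher and 131 lower genes, a share of 50.6%. Of the 608 genes, 277 were still called without MLL-AF1p_803, 304 without MLL-ENL_741, 375 without MLL-ENL_703 and 383 without MLL-ENL_760. With the array set as a term 721 genes were called, and within the sets, where the numbers of mice are small, 25 in set 1 and 137 in set 2. All 608 genes kept their sign in each of these fits.

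**Figure D1:**
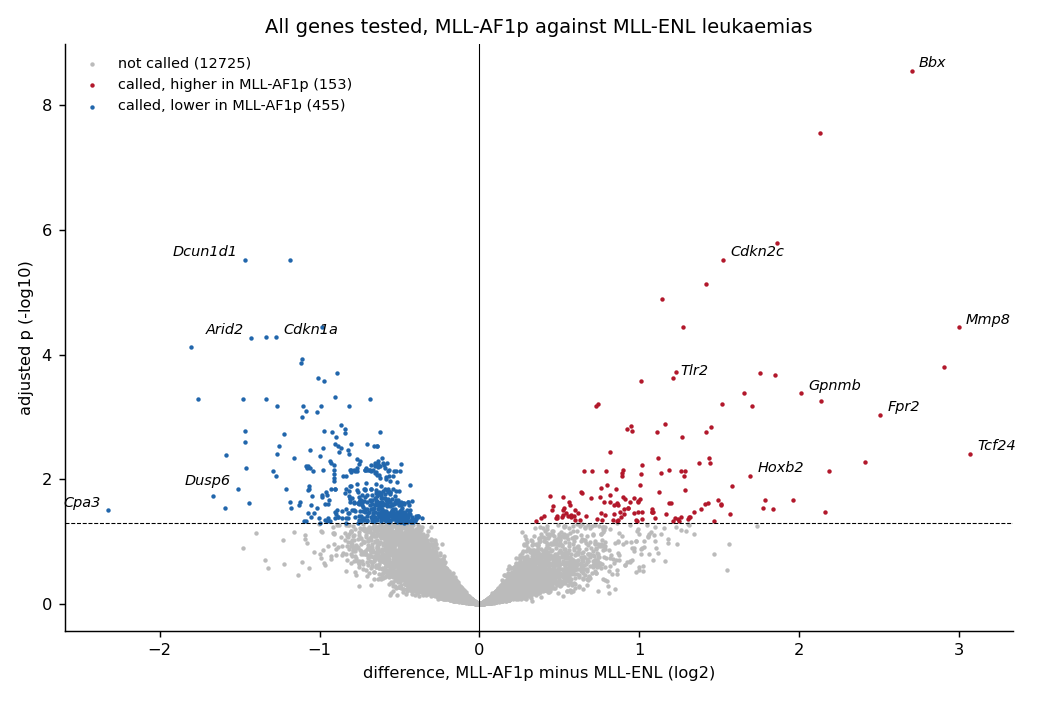
Difference between MLL-AF1p and MLL-ENL leukaemias (log2, horizontal) against the adjusted p (-log10, vertical) of 13333 genes, each point 1 gene, with the dashed line at the threshold. The 153 called genes that were higher in MLL-AF1p (red) reach further from 0 than the 455 that were lower (blue), with Tcf24 at 3.07 and Cpa3 at -2.32 as the ends.

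Late neutrophil genes were the list with the most calls in one direction. Neutrophils store proteins in granules that are filled in turn as the cell matures: primary granules at the promyelocyte stage, then specific and gelatinase granules. Of 23 late neutrophil genes tested, 6 were higher in MLL-AF1p, none was lower and 17 were not called, beside 1.15% of all genes called higher. Their median difference was 0.93, beside -0.09 for all genes, and 22 of the 23 lay above 0. Quantile normalization gave a median of 0.97 and the unshifted deposited values one of 1.02, beside -0.02 and -0.001 for all genes.

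Mmp8, the neutrophil collagenase of specific granules, had levels of 11.84, 13.21 and 14.27 in MLL-AF1p, against 9.65, 9.96 and 10.90 in MLL-ENL. Every MLL-AF1p mouse lay above every MLL-ENL mouse. The difference was 2.997 (SE 0.43), a 7.98-fold higher level in MLL-AF1p (adjusted p = 3.649e-05), and it was called in every alternative processing run. Fpr2, a receptor for formylated bacterial peptides that guides neutrophils, had levels of 10.89, 12.81 and 13.98 in MLL-AF1p, against 8.93, 9.73 and 11.37 in MLL-ENL (difference 2.51, SE 0.46, adjusted p = 0.000934). Only the ends of its ranges overlapped. Ltf, lactoferrin of the specific granules, spanned 10.18, 13.20 and 14.85 in MLL-AF1p, against 9.96, 10.83 and 12.76 in MLL-ENL. Its ranges overlapped widely, and its difference of 2.16 (SE 0.60, adjusted p = 0.0331) lost the call without any 1 of 7 arrays (MLL-AF1p_803, MLL-AF1p_810, MLL-AF1p_811, MLL-ENL_741, MLL-ENL_742, MLL-ENL_760 and MLL-ENL_774; adjusted p up to 0.0818) and without both arrays that stood apart (0.103).

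Lrg1, a leucine-rich glycoprotein of neutrophil granules, was 1.96 higher (SE 0.51, adjusted p = 0.0215), with levels of 8.93, 10.09 and 12.69 in MLL-AF1p and of 7.19, 8.76 and 9.71 in MLL-ENL. Its call was lost without MLL-AF1p_803 (adjusted p = 0.0566), MLL-ENL_702 (0.0507) or MLL-ENL_741 (0.0626). Itgb2l, an integrin chain that appears as mouse neutrophils mature, was 1.41 higher (SE 0.38, adjusted p = 0.0252). Of its 3 probe sets 2 had that sign and the lowest gave -0.22, and its call was lost without MLL-AF1p_803 (0.0675), MLL-ENL_741 (0.0589), MLL-ENL_742 (0.0618) or MLL-ENL_760 (0.0526). The remaining called member, Lcn2 (lipocalin 2, which binds bacterial iron carriers), is named after its value was seen and was 1.32 higher (SE 0.39, adjusted p = 0.0403). Its call was lost without any 1 of 9 arrays (adjusted p up to 0.103) and without MLL-AF1p_801 and MLL-AF1p_803 (0.101).

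Camp, the cathelicidin antimicrobial peptide, did not pass, with a difference of 1.47 (SE 0.61, adjusted p = 0.158) and levels of 11.93, 14.65 and 16.08 in MLL-AF1p against 11.39, 12.81 and 14.54 in MLL-ENL. Ngp, a granule protein of the cathelicidin kind, differed by 1.29 (SE 0.42, adjusted p = 0.0675). The mean over the 23 genes was 11.002, 12.71 and 13.86 in MLL-AF1p mice and 10.51, 11.28 and 12.49 in MLL-ENL mice, so the cohorts overlapped in the list as a whole. Normal marrow, which holds many maturing neutrophils, lay between 13.08 and 13.94. The medians of the other leukaemia cohorts were 12.60 in MLL-GAS7, 12.37 in MLL-AF10 and 11.59 in MLL-AF9. MLL-AF1p thus lay near MLL-GAS7 and MLL-AF10, and MLL-ENL had the lowest median, with no test made.

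The number of called late neutrophil genes was 2 without MLL-AF1p_803 or MLL-ENL_741 and 3 without MLL-ENL_742 or MLL-ENL_760, and up to 7 without other single arrays. It was 3 without MLL-AF1p_801 and MLL-AF1p_803, 3 within array set 1 and 1 within array set 2. In whole marrow a larger number of maturing neutrophils and more RNA of these genes per leukaemic cell cannot be told apart.

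**Figure D2:**
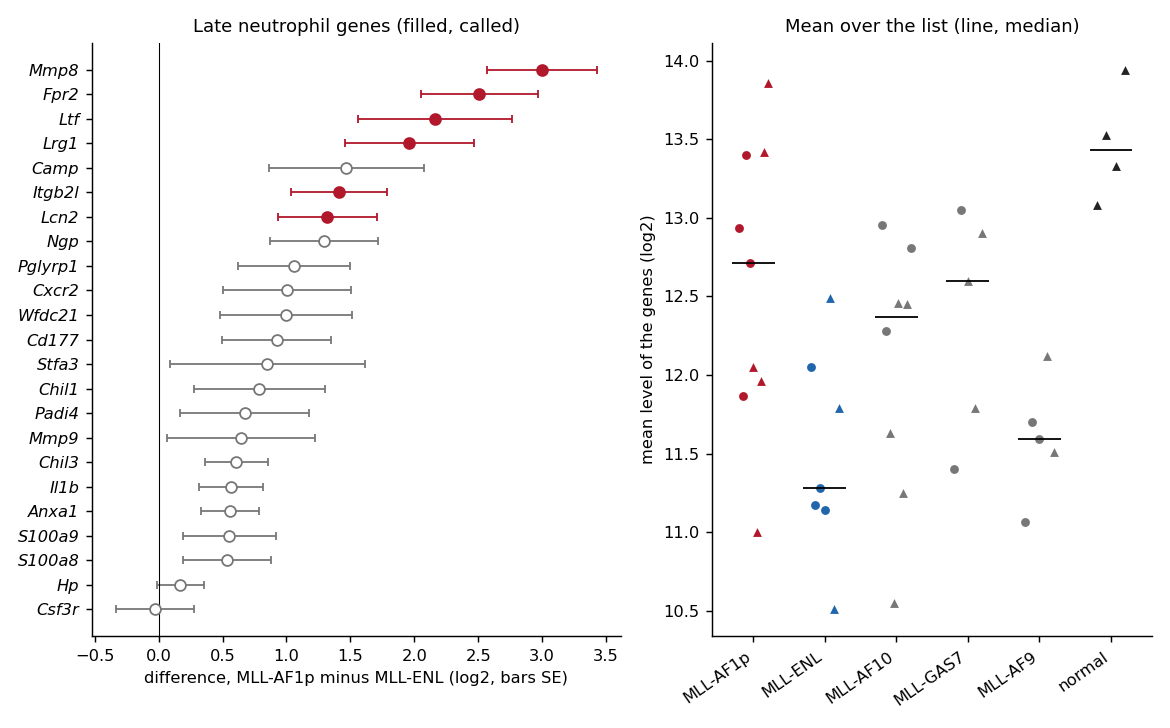
Left, difference of each of the 23 late neutrophil genes (log2, bars SE), filled where called. Right, mean level of the 23 genes (log2) in every mouse of each cohort and in normal marrow (circles, array set 1; triangles, array set 2; line, median); MLL-AF1p mice range from 11.002 to 13.86 and MLL-ENL mice from 10.51 to 12.49.

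Genes of the stage before and of the neighbouring monocyte line gave no call, beside 4.56% of all genes called, a share at which lists of this size can hold none. None of 12 primary granule genes was called (median -0.06). Mpo, myeloperoxidase of the primary granules, averaged 15.18 ± 0.32 in MLL-AF1p and 15.01 ± 0.43 in MLL-ENL (SD). Elane, neutrophil elastase, averaged 15.19 ± 0.33 in MLL-AF1p and 15.09 ± 0.22 in MLL-ENL. None of 25 monocyte genes was called, with 19 above 0 and a median of 0.25, beside -0.09 for all genes. Csf1r, the receptor for macrophage colony stimulating factor, averaged 13.94 ± 0.32 in MLL-AF1p and 13.75 ± 0.46 in MLL-ENL. Csf3r, the receptor for granulocyte colony stimulating factor, differed by -0.03 (adjusted p = 0.972).

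The promoters of the 3 late neutrophil genes with the largest rises are shown because these genes moved together and share a cell type. Each is 300 bases from RefSeq on the GRCm38.p6 build, 250 before to 50 after the transcription start, 5′ to 3′ on the strand of the gene. Capitals mark matches on either strand to TTNNGNAAT, a form of the C/EBP site, or to GGAAGT, the core of a PU.1 site, and no match overlapped another in these 3 windows.
Mmp8, at chr9:7558179-7558478 on the + strand: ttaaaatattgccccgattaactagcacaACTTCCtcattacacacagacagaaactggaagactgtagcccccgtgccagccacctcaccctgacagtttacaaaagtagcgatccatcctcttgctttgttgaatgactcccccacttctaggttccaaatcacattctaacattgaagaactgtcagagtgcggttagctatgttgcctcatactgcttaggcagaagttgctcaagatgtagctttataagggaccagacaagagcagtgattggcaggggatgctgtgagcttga
Fpr2, at chr17:17887574-17887873 on the + strand: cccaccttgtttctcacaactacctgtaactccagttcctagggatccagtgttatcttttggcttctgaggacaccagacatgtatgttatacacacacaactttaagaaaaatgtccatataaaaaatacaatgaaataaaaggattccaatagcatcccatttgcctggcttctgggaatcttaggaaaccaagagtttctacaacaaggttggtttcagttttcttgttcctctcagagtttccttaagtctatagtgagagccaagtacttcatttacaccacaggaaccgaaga
Ltf, at chr9:111019042-111019341 on the + strand: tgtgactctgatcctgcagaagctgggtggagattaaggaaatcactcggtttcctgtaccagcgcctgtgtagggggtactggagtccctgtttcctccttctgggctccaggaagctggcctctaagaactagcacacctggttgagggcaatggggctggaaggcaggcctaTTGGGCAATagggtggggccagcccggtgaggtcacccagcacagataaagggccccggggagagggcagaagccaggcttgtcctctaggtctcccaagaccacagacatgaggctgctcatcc
Mmp8 held 1 match to GGAAGT, Ltf 1 match to TTNNGNAAT, and Fpr2 neither in this window. Of the 23 late neutrophil genes 20 had a RefSeq promoter window. Among the 6 that were called, 2 held TTNNGNAAT and 3 held GGAAGT. Among the 14 that were not, 5 held TTNNGNAAT and 7 held GGAAGT. Of all 32851 mouse promoter windows 11.5% held TTNNGNAAT and 23.8% held GGAAGT.

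Olfm4 and Fcnb, a pair of genes of maturing myeloid cells, were among the largest rises outside the list. Olfm4, olfactomedin 4 of the specific granules, had levels of 12.38, 14.19 and 15.06 in MLL-AF1p, against 9.25, 11.39 and 13.16 in MLL-ENL (difference 2.41, SE 0.51, adjusted p = 0.00519). Fcnb, a ficolin lectin made by myeloid precursors, had levels of 11.02, 12.32 and 14.05 in MLL-AF1p, against 9.36, 10.15 and 11.40 in MLL-ENL (difference 2.19, SE 0.49, adjusted p = 0.00746). The ranges of both overlapped, and both kept their call without any single array.

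Receptors for microbial products rose in part. Of 21 chemoattractant and Toll-like receptor genes 3 were higher, none was lower and 18 were not called, beside 1.15% of all genes called higher. Their median difference was 0.33. Besides Fpr2, which the late neutrophil list also holds, the called genes were Tlr2, which recognises bacterial lipoproteins, and Tlr13, which recognises bacterial ribosomal RNA in mice. Tlr2 had levels of 9.63, 10.10 and 10.56 in MLL-AF1p, against 8.56, 8.72 and 9.28 in MLL-ENL. The cohorts did not overlap, and the difference was 1.21 (SE 0.20, adjusted p = 0.00024). Tlr13 was 1.08 higher (SE 0.30, adjusted p = 0.0339), and its call was lost without MLL-AF1p_803 (0.0622), MLL-ENL_703 (0.0553), MLL-ENL_741 (0.0615), MLL-ENL_742 (0.0903), MLL-ENL_760 (0.0507) or MLL-ENL_774 (0.0626). Tlr4, the receptor for lipopolysaccharide, differed by -0.26 (adjusted p = 0.422), and its partner Cd14 by -0.05 (adjusted p = 0.947).

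Among resident macrophage genes 4 of 18 were higher and none was lower (median 0.25), beside 1.15% of all genes called higher. Without single arrays 1 to 4 were higher. Gpnmb, a glycoprotein of macrophage lysosomes, had levels of 9.78, 11.07 and 11.77 in MLL-AF1p, against 7.89, 8.96 and 9.70 in MLL-ENL. The cohorts did not overlap (difference 2.01, SE 0.34, adjusted p = 0.000417). Apoe, a lipid carrier, was 1.47 higher, and Axl and Mertk, receptor kinases for the uptake of dying cells, were higher by 1.249 and 1.21 (adjusted p = 0.0457 each). The calls of these 3 were lost without any 1 of 12 to 14 of the arrays, with adjusted p up to 0.107. The summed intensity of the 5 defining macrophage markers (C1qa, C1qb, C1qc, Cd5l and Vcam1) was 732.2 to 3107 in MLL-AF1p (median 1886), 681.8 to 3932 in MLL-ENL (median 3372) and 6325 to 14860 in normal marrow, so the sum did not move up with Gpnmb. Vcam1 made its largest part in every mouse of both cohorts, and C1qa was near the floor (means of 5.96 in MLL-AF1p and 6.19 in MLL-ENL). Singly, the 5 markers differed by -0.23, 0.21, -0.16, -0.18 and -0.42 in the order given, none of them called. Slc15a3, a lysosomal transporter of histidine and peptides, had levels of 9.61, 10.37 and 10.89 in MLL-AF1p, against 7.44, 8.38 and 9.04 in MLL-ENL, without overlap (difference 1.85, SE 0.30, adjusted p = 0.000217).

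The gene with the lowest p of all was Bbx, which encodes a DNA-binding protein with an HMG box. Its levels were 10.99, 12.14 and 12.84 in MLL-AF1p, against 8.49, 9.47 and 9.62 in MLL-ENL. The cohorts were more than 1 log2 unit apart at their nearest mice. The difference was 2.71 (SE 0.24), a 6.52-fold higher level (adjusted p = 2.823e-09), and all 5 of its probe sets were higher, by 1.60 to 2.79. Bbx averaged 11.24 in MLL-AF10 leukaemias, while MLL-GAS7 (9.33), MLL-AF9 (9.25) and normal marrow (8.94) were lower.

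A transcript next to Bbx on chromosome 16 moved the same way. G730013B05Rik, the next tested gene in RefSeq order, is named after its value was seen; it averaged 9.68 ± 0.52 in MLL-AF1p and 7.55 ± 0.16 in MLL-ENL (SD), a difference of 2.13 (adjusted p = 2.788e-08). A like pair lay on chromosome 4, where the clone transcript 9630013D21Rik was 2.91 higher (adjusted p = 0.000156) beside Cdkn2c. On chromosome 3 Atp11b, Dcun1d1 and Mccc1 are neighbours and differed by -0.44, -1.47 and -0.97. The call of Atp11b was lost without any 1 of 9 arrays (adjusted p up to 0.0979). On chromosome 7 Slc22a18, an organic cation transporter, was 1.66 higher (adjusted p = 0.000417) beside Cdkn1c, at 1.10. These genes too were picked after their values were seen. In all, 35 of 11473 pairs of neighbours less than 200 kb apart had both genes called, 6 with both higher, 24 with both lower and 5 in opposite directions. Single genes were called at 4.56%, and whether the pairs exceed what that share alone gives was not tested. Where such genes overlap or lie end to end, 1 long transcript and 2 separate ones cannot be told apart by these probe sets.

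Several genes with roles in transcription or development were also higher. Tcf24, a helix-loop-helix protein, had the largest difference of all named genes. Its levels were 7.73, 10.44 and 12.61 in MLL-AF1p, against 6.91, 7.47 and 8.30 in MLL-ENL, so that all MLL-AF1p mice but MLL-AF1p_805 were above the MLL-ENL range (difference 3.07, SE 0.63, adjusted p = 0.00386). Epha7, a receptor for ephrins, had levels of 8.67, 9.64 and 10.18 in MLL-AF1p, against 6.81, 7.41 and 7.88 in MLL-ENL, without overlap (difference 2.13, SE 0.37, adjusted p = 0.000558). Its 4 probe sets were all higher, by 1.19 to 4.06. Cibar1, a membrane-bending protein of cilia, had levels of 8.86, 9.72 and 10.27 in MLL-AF1p, against 7.25, 7.94 and 8.53 in MLL-ENL (difference 1.86, SE 0.22, adjusted p = 1.651e-06). The other 3 leukaemia cohorts and normal marrow averaged 9.23 to 9.49 for Cibar1, so the low cohort was MLL-ENL.

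Hoxb2 was the only called gene of 4 HoxB genes tested, beside 4.56% of all genes called. It had levels of 7.32, 7.60 and 10.40 in MLL-AF1p, against 6.03, 6.27 and 6.75 in MLL-ENL, without overlap (difference 1.70, SE 0.39, adjusted p = 0.00869). MLL-AF1p_810 held the highest level, well above the rest. These levels are low. Before shifting, array medians on this scale were 7.454 to 7.991 in MLL-AF1p and 7.49 to 7.638 in MLL-ENL, so every MLL-ENL level lay below them. Hoxb2 was tested in 31 of the 32 other settings. Hoxb3, Hoxb4 and Hoxb7 differed by -0.03, -0.19 and -0.20 (adjusted p from 0.663 to 0.957).

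The calls among the smaller rises of transporters and kinases were less stable. Slco4c1, an organic anion transporter, was 1.84 higher (adjusted p = 0.03) and lost its call without any 1 of 6 arrays (MLL-AF1p_803, MLL-AF1p_811, MLL-ENL_702, MLL-ENL_741, MLL-ENL_742 and MLL-ENL_760; adjusted p up to 0.0801). Mapk13, the delta form of the p38 kinase, was 1.79 higher (adjusted p = 0.0215) and lost its call without MLL-AF1p_803 (0.0568), MLL-ENL_741 (0.0665) or MLL-ENL_742 (0.0593). Ms4a8a, a membrane protein of the family of CD20, was 1.77 higher (adjusted p = 0.029) and lost its call without MLL-AF1p_803 (0.0546), MLL-ENL_701 (0.0592), MLL-ENL_703 (0.0542), MLL-ENL_741 (0.0746) or MLL-ENL_742 (0.065).

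**Figure D3:**
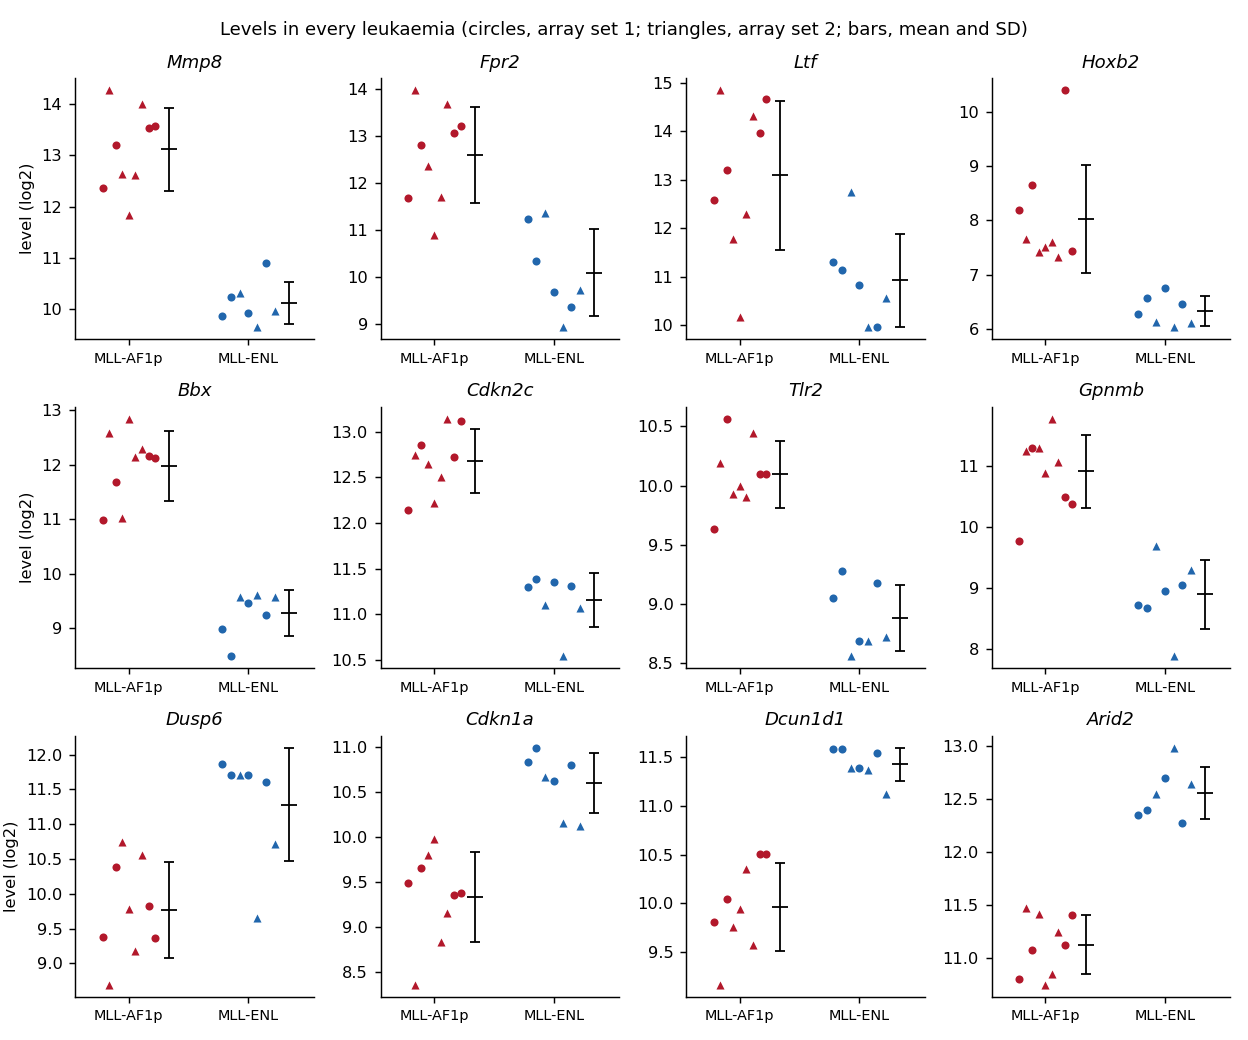
Levels (log2) of 12 genes in each of the 9 MLL-AF1p (red) and 7 MLL-ENL (blue) mice; circles are array set 1, triangles array set 2, and the bars show mean and SD. Mmp8, Bbx, Hoxb2, Cdkn2c, Tlr2 and Gpnmb separate with MLL-AF1p above, Cdkn1a, Dcun1d1 and Arid2 separate with MLL-AF1p below, and Fpr2, Ltf and Dusp6 overlap. The MLL-ENL levels of Hoxb2 all lie below the array medians.

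The inhibitors of cell cycle kinases moved in both directions. Of 19 genes of cell cycle entry 2 were higher, 4 were lower and 13 were not called (median -0.20), beside 1.15% of all genes called higher and 3.41% lower. Cdkn2c, the p18 inhibitor of the cyclin D kinases, had levels of 12.14, 12.72 and 13.14 in MLL-AF1p, against 10.54, 11.30 and 11.39 in MLL-ENL. The cohorts did not overlap, and the difference was 1.52 (SE 0.19), a 2.88-fold higher level (adjusted p = 3.039e-06), called in every alternative processing run. Cdkn1a, the p21 inhibitor that p53 switches on, had levels of 8.35, 9.37 and 9.98 in MLL-AF1p, against 10.12, 10.67 and 10.99 in MLL-ENL. It was 2.41-fold lower in MLL-AF1p, without overlap (difference -1.27, SE 0.19, adjusted p = 5.265e-05). Normal marrow averaged 8.51 for Cdkn1a, below the means of 9.33 in MLL-AF1p and 10.60 in MLL-ENL.

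Ccne2, a cyclin that drives entry into DNA synthesis, fell by 0.74 (adjusted p = 0.0223), and without MLL-AF1p_801 and MLL-AF1p_803 its adjusted p was 0.105. Cdk6, a cyclin D kinase and a direct target of MLL fusions, fell by 0.53 (adjusted p = 0.0386), and Rb1, the retinoblastoma protein, fell by 0.57 (adjusted p = 0.0351). Cdkn1c, the p57 inhibitor, was higher by 1.10 (adjusted p = 0.0409). Calls of the last 3 were lost without any 1 of 9 to 12 arrays (adjusted p up to 0.105). Without those 2 arrays 1 gene of cell cycle entry was higher and 1 lower. Proliferation lists showed no call, beside 4.56% of all genes called, but most of their members lay below 0. None of 27 mitosis genes was called (median -0.22, 1 above 0), and none of 28 DNA replication genes (median -0.22, 3 above 0). These medians were -0.12 and -0.13 with the values as deposited, beside -0.001 for all genes.

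Genes of the p53 pathway fell or did not pass. Of 19 tested 4 were lower, none was higher and 15 were not called (median -0.20), beside 3.41% of all genes called lower. Besides Cdkn1a, these were Ccng1, Gadd45b and Bbc3. Ccng1, cyclin G1, had levels of 9.50, 10.91 and 11.47 in MLL-AF1p, against 11.52, 11.78 and 11.92 in MLL-ENL, without overlap (difference -0.93, SE 0.20, adjusted p = 0.00542). Gadd45b, a stress sensor, fell by 0.91 (SE 0.21, adjusted p = 0.00949, and 0.0522 without MLL-AF1p_801 and MLL-AF1p_803). Its 3 probe sets gave -0.91, -0.53 and -0.22 (adjusted p over all kept probe sets of 0.014, 0.085 and 0.56). Bbc3, the PUMA activator of cell death, fell by 0.54 (adjusted p = 0.0399), a call lost without any 1 of 10 arrays. Mdm2, the ligase that removes p53, differed by -0.05 (adjusted p = 0.885). Without MLL-AF1p_801 and MLL-AF1p_803 the count was 2 of 19.

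Dusp6, the phosphatase that switches off ERK and is itself switched on by ERK signalling, had the largest fall among feedback genes of the Ras-ERK pathway. Its levels were 8.69, 9.78 and 10.74 in MLL-AF1p, against 9.65, 11.70 and 11.87 in MLL-ENL. All MLL-ENL mice but MLL-ENL_742 and MLL-ENL_774 lay above the whole MLL-AF1p range. The difference was -1.51 (SE 0.37), a 2.85-fold lower level (adjusted p = 0.0142), and without MLL-AF1p_801 and MLL-AF1p_803 it was -1.30 (adjusted p = 0.0699). Spred2, an inhibitor of Ras signalling, had levels of 8.65, 9.199 and 10.22 in MLL-AF1p, against 9.91, 10.26 and 10.53 in MLL-ENL (difference -0.91, SE 0.20, adjusted p = 0.00712). Its 3 probe sets gave -0.91, -0.51 and -0.09 (adjusted p over all kept probe sets of 0.01, 0.14 and 0.85). Dusp6 and Spred2 were the calls among 16 feedback genes (median -0.20, 2 above 0), beside 3.41% of all genes called lower. Spred1 differed by -0.92 (adjusted p = 0.0728) and Spry2 by -0.43 (adjusted p = 0.242). Dusp1, a phosphatase of stress kinases, differed by 1.16 (adjusted p = 0.206).

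Immediate early genes, which growth signals switch on within minutes, gave 1 call among 18 (median -0.24), beside 4.56% of all genes called. Egr1, a zinc finger factor, had levels of 7.63, 8.404 and 10.61 in MLL-AF1p, against 8.16, 9.76 and 10.25 in MLL-ENL. Both cohorts held an outlying mouse, MLL-AF1p_804 at the top and MLL-ENL_742 at the bottom, and the call (difference -1.07, SE 0.30, adjusted p = 0.0341) was lost without any 1 of 11 arrays (adjusted p up to 0.0767). Myc differed by -0.73 (adjusted p = 0.159) and Fos by -0.41 (adjusted p = 0.72).

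Dcun1d1, which helps attach NEDD8 to cullin ubiquitin ligases, had the lowest p among the named genes that fell. Levels were 9.16, 9.94 and 10.51 in MLL-AF1p, against 11.12, 11.39 and 11.59 in MLL-ENL, without overlap. The difference was -1.47 (SE 0.18), a 2.77-fold lower level (adjusted p = 3.039e-06), all 5 probe sets were lower (-1.47 to -0.69), and the gene was called in every alternative processing run. MLL-AF9 averaged 11.55, MLL-GAS7 10.72, MLL-AF10 10.18 and normal marrow 9.91.

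Arid2, a subunit of the PBAF chromatin remodeller, had levels of 10.75, 11.13 and 11.47 in MLL-AF1p, against 12.27, 12.55 and 12.98 in MLL-ENL. The cohorts did not overlap (difference -1.43, SE 0.21, adjusted p = 5.417e-05), and all 4 probe sets were lower (-1.43 to -0.81). Gphn, gephyrin of inhibitory synapses and of molybdenum cofactor synthesis, had levels of 7.14, 8.26 and 8.67 in MLL-AF1p, against 9.03, 9.42 and 10.12 in MLL-ENL, without overlap (difference -1.34, SE 0.23, adjusted p = 0.000508). Slc16a1, the lactate carrier MCT1, had levels of 7.34, 9.07 and 9.86 in MLL-AF1p, against 9.99, 10.24 and 10.88 in MLL-ENL, without overlap (difference -1.46, SE 0.32, adjusted p = 0.00657).

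Spsb4, a SOCS box adaptor of ubiquitin ligases, fell by 1.76 (SE 0.30, adjusted p = 0.000518). Il22ra2, the soluble receptor that captures interleukin 22, fell by 1.59 (SE 0.33, adjusted p = 0.00403), and averaged 7.58 to 8.79 in the other 3 leukaemia cohorts against medians of 8.97 in MLL-AF1p and 10.91 in MLL-ENL. Ak3, a mitochondrial adenylate kinase, fell by 1.48 (SE 0.26, adjusted p = 0.000518), Slc39a8, a zinc importer, fell by 1.47 (SE 0.28, adjusted p = 0.00171) and Tgif1, a repressor of TGF-beta signalling, fell by 1.46 (SE 0.29, adjusted p = 0.00255).

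H2-Q10, F7 and Angpt1 lost their call without some single arrays. H2-Q10, a secreted class I molecule, fell by 1.67 (adjusted p = 0.0183; 0.058 without MLL-ENL_703 and 0.053 without MLL-ENL_774). F7, coagulation factor VII, fell by 1.59 (adjusted p = 0.0288; 0.076 without MLL-AF1p_803, and above the threshold also without MLL-ENL_702, MLL-ENL_760 or MLL-ENL_774). Angpt1, the ligand of the Tek receptor of stem cells and vessels, fell by 1.44 (adjusted p = 0.0242; 0.0631 without MLL-AF1p_803, 0.0589 without MLL-ENL_741 and 0.0749 without MLL-ENL_742).

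Cpa3, a carboxypeptidase of mast cells that early progenitors also make, had the largest fall of all. Levels were 7.195, 7.678 and 8.487 in MLL-AF1p, against 7.71, 10.34 and 12.09 in MLL-ENL. MLL-AF1p mice were uniformly low and MLL-ENL mice spread over more than 4 log2 units (difference -2.32, SE 0.64, adjusted p = 0.0312). The call was lost without MLL-AF1p_803, MLL-AF1p_806, MLL-ENL_741, MLL-ENL_742, MLL-ENL_760 or MLL-ENL_774 (adjusted p up to 0.0826). Gata2, a transcription factor of stem cells and mast cells, fell by 1.03 (SE 0.29, adjusted p = 0.0353), with the highest level, 11.21, in MLL-ENL_742, and it lost its call without any 1 of 8 arrays (0.103 without that one). These were the 2 calls among 13 eosinophil, basophil and mast cell genes (median -0.44, 4 above 0), beside 3.41% of all genes called lower. Of the other markers that define these cells, Mcpt8 and Fcer1a differed by 0.27 and 0.24 and Prg2 and Epx by -1.325 and -0.80, none of them called. In MLL-ENL_742 the eosinophil granule genes Prg2 and Epx stood at 13.64 and 9.65, against MLL-ENL medians of 8.13 and 7.26. The part of such cells in the result was not tested beyond leaving that array out.

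Erg, an ETS factor of stem cells, had levels of 8.90, 9.48 and 9.64 in MLL-AF1p, against 9.90, 10.28 and 10.61 in MLL-ENL, without overlap (difference -0.91, SE 0.20, adjusted p = 0.00596). With Gata2 it made 2 lower genes of 16 haematopoietic stem cell genes (median -0.02), beside 3.41% of all genes called lower. Kit, the stem cell factor receptor, differed by -0.12 (adjusted p = 0.868) and Cd34 by 0.43 (adjusted p = 0.644). Among 11 surface markers of leukaemia stem cells 2 were lower and 1 was higher, beside 3.41% of all genes called lower and 1.15% higher. Itga6, an integrin chain, fell by 0.80 (SE 0.18, adjusted p = 0.00712). Il1rap, a subunit of the interleukin 1 receptor, fell by 0.66 (adjusted p = 0.0285) and Cd33, a sialic acid receptor, higher by 0.84 (adjusted p = 0.0451), and these calls were lost without any 1 of 6 and 12 arrays (adjusted p up to 0.12). Of 25 myeloid transcription factors Egr1, Runx3 (-0.61) and Etv6 (-0.59) were lower and none was higher, beside 3.41% of all genes called lower. None of the 3 calls held without MLL-AF1p_803.

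Of 30 Polycomb and chromatin modifier genes 4 were lower, none was higher and 26 were not called, beside 3.41% of all genes called lower. Their median was -0.22, beside -0.09 for all genes. It was -0.16 after quantile normalization and -0.13 without the shift, where the medians of all genes were -0.02 and -0.001. Idh2, a mitochondrial isocitrate dehydrogenase that supplies a cofactor of demethylases, had levels of 9.70, 10.43 and 10.82 in MLL-AF1p, against 10.82, 11.37 and 11.77 in MLL-ENL (difference -0.91, SE 0.21, adjusted p = 0.00816). Its 2 probe sets gave -0.91 and -0.25 (adjusted p over all kept probe sets of 0.012 and 0.35). Rnf2, the ubiquitin ligase of Polycomb complex 1, had levels of 9.66, 10.21 and 10.61 in MLL-AF1p, against 10.66, 10.77 and 11.15 in MLL-ENL, without overlap (difference -0.67, SE 0.15, adjusted p = 0.00697). Kdm2b, a histone demethylase of the same complex, fell by 0.58 and Kdm1a, the demethylase LSD1, fell by 0.36, with calls that were lost without any 1 of 9 and 11 arrays (adjusted p up to 0.101).

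Lists of redox, stress and metabolism held a few calls each. Of 18 phagocyte oxidase and antioxidant genes 4 were lower and 1 was higher (median -0.003), beside 3.41% of all genes called lower and 1.15% higher. Gclm, the modifier subunit of the enzyme that starts glutathione synthesis, fell by 0.89 (SE 0.18, adjusted p = 0.00293) and kept its call without each single array. Gclc, its catalytic subunit, fell by 0.75 (adjusted p = 0.0223), Cat, catalase, fell by 0.78 (adjusted p = 0.0319) and Sod2, the mitochondrial superoxide dismutase, fell by 0.54 (adjusted p = 0.0423), and all 3 lost their call without MLL-AF1p_803 (0.0534, 0.0818 and 0.105), as Gclc did without MLL-ENL_742 or MLL-ENL_774, Cat without 8 and Sod2 without 12 of the arrays in turn. The 2 probe sets of Gclm gave -0.89 and -0.32 (adjusted p over all kept probe sets of 0.0046 and 0.31). Cybb, the catalytic subunit of the phagocyte oxidase, was 0.86 higher (adjusted p = 0.046), a call that was lost without any 1 of 15 arrays.

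Egln1, the oxygen-sensing prolyl hydroxylase, fell by 1.11 (SE 0.20, adjusted p = 0.000672). Higd1a, a mitochondrial protein, fell by 0.61 (SE 0.15, adjusted p = 0.0167). They were the 2 lower of 16 hypoxia genes, beside 3.41% of all genes called lower. The call of Higd1a was lost without MLL-AF1p_801 and MLL-AF1p_803 (0.0909) and in a fit of the 16 arrays alone (0.069), which leaves 1 lower hypoxia gene without the 2 arrays. The 2 probe sets of Higd1a gave -0.61 and -0.31 (adjusted p over all kept probe sets of 0.023 and 0.34). Aldoc, an aldolase, was 0.93 higher (SE 0.18, adjusted p = 0.00155), the 1 call of 18 glycolysis genes, beside 4.56% of all genes called. Irgm1, an interferon-induced GTPase, fell by 0.65 (SE 0.15, adjusted p = 0.00766). It was 1 of 3 lower genes of 30 interferon response genes, beside 3.41% of all genes called lower. The others were Gbp3 (-1.05) and Ifi35 (-0.50), whose calls were lost without MLL-ENL_741 and without any 1 of 12 arrays. Among 12 heat shock and chaperone genes Hsph1 (-0.86) and Dnaja1 (-0.65) were lower, beside 3.41% of all genes called lower. Neither call held without MLL-AF1p_803 (0.106 and 0.0547).

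**Figure D4:**
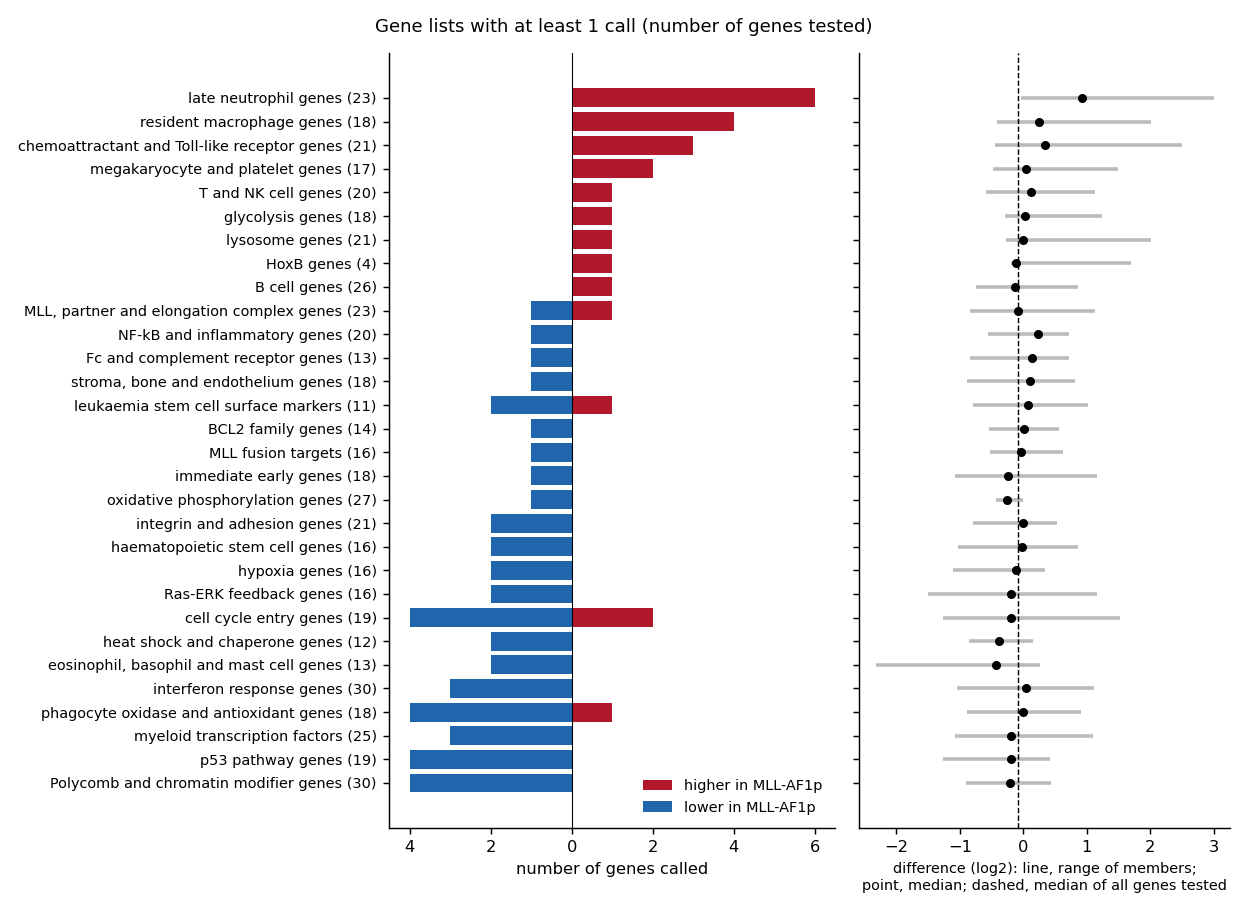
Left, number of genes called higher (red) and lower (blue) in MLL-AF1p in the 30 lists with at least 1 call, with the number tested in brackets. Right, range and median of each list's differences (log2), with the median of all genes (-0.09) dashed; late neutrophil genes have the highest median, 0.93.

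Direct targets of MLL fusions gave 1 call. Of 16 tested, Cdk6 was lower and 15 were not called (median -0.04), beside 3.41% of all genes called lower. Hoxa9, the homeobox gene on which MLL leukaemias depend, had levels of 12.01, 12.84 and 13.58 in MLL-AF1p, against 12.41, 12.85 and 13.47 in MLL-ENL (difference -0.13, SE 0.20, adjusted p = 0.773). Meis1, its cofactor, had levels of 9.66, 10.51 and 10.96 in MLL-AF1p, against 9.83, 10.69 and 11.36 in MLL-ENL (difference -0.25, SE 0.24, adjusted p = 0.595), and its 3 probe sets disagreed in sign. In normal marrow the means of Hoxa9 and Meis1 were 7.78 and 6.74. Jmjd1c, a demethylase gene, was just outside the threshold at 0.49 (adjusted p = 0.0533).

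The genes of MLL and of both fusion partners were not called. Kmt2a averaged 9.92 ± 0.23 in MLL-AF1p and 10.07 ± 0.20 in MLL-ENL (SD; adjusted p = 0.51). Eps15 averaged 11.66 ± 0.38 in MLL-AF1p and 11.87 ± 0.15 in MLL-ENL (adjusted p = 0.5), with 2 of 3 probe sets of the same sign. Mllt1 averaged 8.78 ± 0.63 in MLL-AF1p and 8.86 ± 0.50 in MLL-ENL (adjusted p = 0.908). Whether any of these probe sets reads the viral fusion was not tested, so they do not check the cohort labels. Of 23 MLL, partner and elongation complex genes 2 were called, beside 4.56% of all genes called. Ell2, an elongation factor, was 1.12 higher (SE 0.28, adjusted p = 0.016), and Psip1, the LEDGF protein that tethers MLL to chromatin, fell by 0.84 (SE 0.19, adjusted p = 0.00886). Without MLL-AF1p_801 and MLL-AF1p_803 their adjusted p were 0.0518 and 0.058. The 3 probe sets of Psip1 gave -0.84, -0.865 and -0.36 (adjusted p over all kept probe sets of 0.013, 0.114 and 0.207). None of 22 genes of clathrin endocytosis, the process in which EPS15 acts, was called (median -0.07). This stands beside 4.56% of all genes called, a share at which a list of this size can hold none.

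In 18 of the 48 lists no gene was called, among them 22 erythroid genes, 9 MHC class II genes, 22 growth factor receptor genes, 13 cytosolic ribosomal protein genes and 11 genes of the Myc network. With 4.56% of all genes called, lists of these sizes can hold none. As sums, the erythroid and B cell markers were far below normal marrow in both cohorts. Summed over the 4 erythroid markers tested, intensities were 318.0 to 988.8 in MLL-AF1p and 388.3 to 724.8 in MLL-ENL, against 51120 to 74420 in normal marrow. The 5 B cell markers tested summed to 456.3 to 887.5 in MLL-AF1p and 424.1 to 908.8 in MLL-ENL, against 6024 to 11880 in normal marrow. Not every marker followed its sum. Hba-a1, an erythroid marker, averaged 7.49 in MLL-AF1p and 7.31 in MLL-ENL, above 6.89 in normal marrow. These levels come from 1 probe set and are low. Array medians before shifting were 7.454 to 7.991 in MLL-AF1p and 7.49 to 7.638 in MLL-ENL, so no rise of Hba-a1 can be read from them. Alas2, another erythroid marker, averaged 6.38 in MLL-AF1p and 6.22 in MLL-ENL, against 14.70 in normal marrow. Pax5, a B cell marker, averaged 7.49 and 8.13, against 8.965 in normal marrow. The 5 eosinophil, basophil and mast cell markers summed to 723.2 to 1647 in MLL-AF1p and to 916.6 to 17820 in MLL-ENL (median 1891), against 22660 to 34870 in normal marrow. Of the 52 defining markers tested, Ltf, Mmp8 and Gp9, a platelet glycoprotein, were higher and Cpa3 was lower. Of all genes 1.15% were called higher and 3.41% lower. The call of Gp9 (1.26, adjusted p = 0.04) was lost without any 1 of 9 arrays (adjusted p up to 0.1).

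Levels in the other cohorts are given for a few genes picked after their values were seen, with no test made. Bbx, Cdkn2c, Gpnmb and Mmp8 averaged 11.24, 12.80, 11.10 and 12.61 in MLL-AF10, beside MLL-AF1p means of 11.98, 12.68, 10.92 and 13.12. MLL-AF9, whose partner is a relative of ENL, averaged 9.25, 11.08, 9.50 and 10.60 for the same 4 genes, beside MLL-ENL means of 9.28, 11.15, 8.90 and 10.12. MLL-GAS7 averaged 9.33, 11.88, 9.17 and 12.25 for them, so it lay by MLL-ENL for Bbx and Gpnmb, between the cohorts for Cdkn2c and by MLL-AF1p for Mmp8. Dusp6 averaged 9.44 in MLL-AF10, 10.08 in MLL-GAS7 and, in MLL-AF9, 9.46, beside 9.77 in MLL-AF1p and 11.28 in MLL-ENL, so MLL-ENL was the highest cohort.

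**Figure D5:**
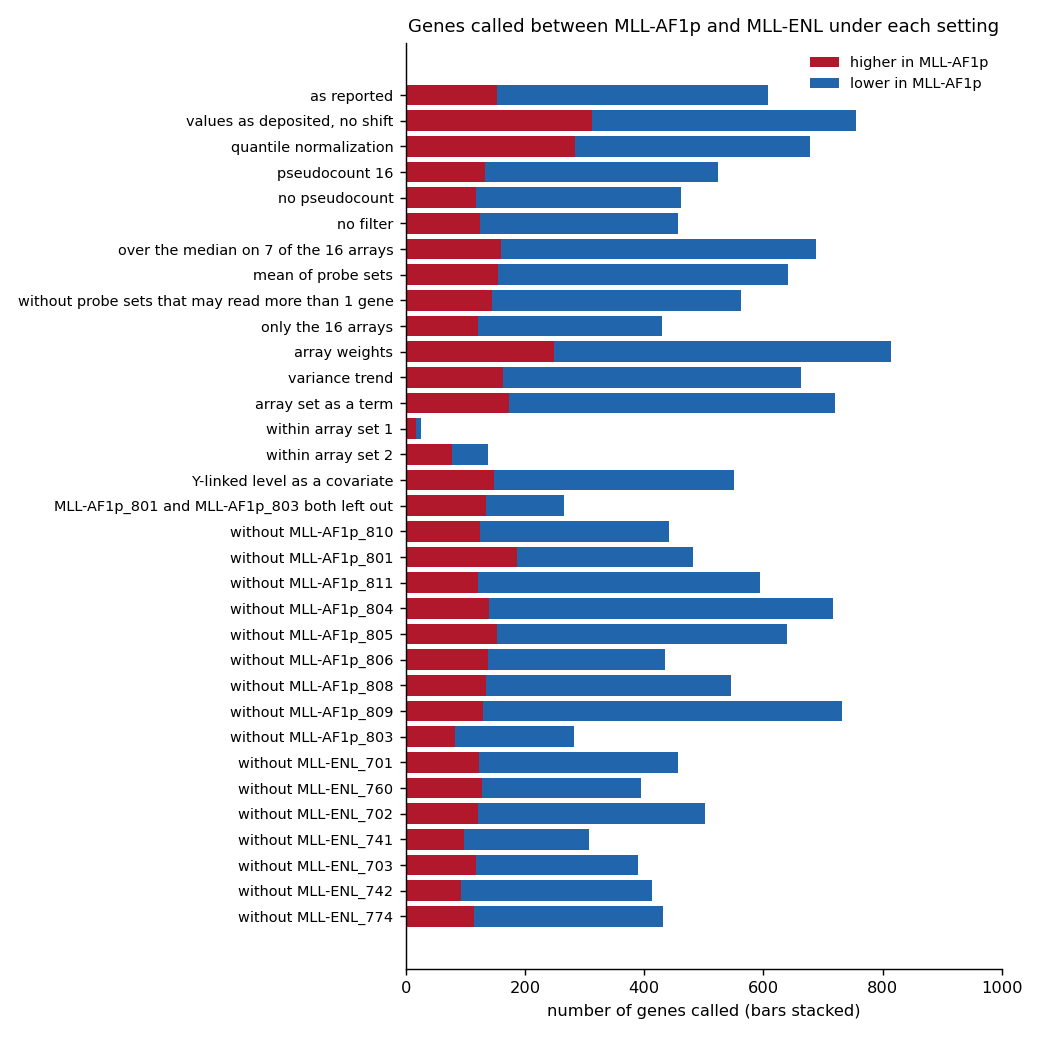
Number of genes called between MLL-AF1p and MLL-ENL as reported and under 32 other settings, stacked as higher (red) and lower (blue) in MLL-AF1p. The total ranges from 25 within array set 1 to 815 with array weights, and is 608 as reported.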

How the data were processed

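RNA from the marrow of 38 mice was hybridised to Affymetrix mouse GeneChips, 1 array a mouse. The deposited values are intensities of 45101 probe sets that the authors scaled to a common level on every array (the files show a mean of 500 after trimming 2% at each end); software and further steps are not given in the sources used here. For the present values, log2(intensity + 46.1) was taken, where 46.1 is the 25th percentile of the deposited intensities, and arrays were brought to a common median, because their medians spanned more than 0.5. A probe set was kept if it was over the array median on at least 4 arrays, and the kept probe set with the highest mean stood for its gene. Of the probe sets, 34945 had 1 symbol in the platform annotation, 932 several and 9160 none; 34741 matched a RefSeq gene by Entrez ID, and 0 symbols changed. After the filter 29041 probe sets remained, 23902 with 1 symbol, for 13333 genes.

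Means of the 6 groups were fitted over all 38 arrays with limma 3.58.1 in R 4.3.3, which pools the spread of all groups, and p-values were adjusted by Benjamini-Hochberg over all genes at 0.05. The fit was tested on simulated data. Named genes were the 15 largest called rises and the 15 largest called falls, leaving out predicted genes and clone names, the 5 called members with the largest difference from each list, every member of lists of at most 14 genes, markers that define a cell type, and Hoxa9, Meis1, Kmt2a, Eps15 and Mllt1. The comparison of 1 of the falls is not reported here. Other list members and neighbouring genes given beside them were chosen after their values were seen. The genes and lists were chosen with earlier results of these data known. Precision is limited by the number of arrays. Alternatives covered the scaling, pseudocount, filter, probe set rule, array weights, array set, a covariate and each array left out; leaving out MLL-AF1p_801 with MLL-AF1p_803 was chosen after seeing the data. Python 3.11.15, pandas 2.3.3, numpy 2.4.6 and matplotlib 3.10.9 served for lists and figures.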

Additional observations from a re-analysis of the deposited data

Results flagged for a closer look

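Among 392 groups of values examined, 382 of them of named genes, 28 held 1 mouse far from the others of its cohort. Chance alone gives about 1 in 20, and no explanation was tested. All values are log2 levels, each followed by the median of its cohort.

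In MLL-AF1p, MLL-AF1p_803 was low for Hsph1 (7.90, median 9.27), Idh2 (9.70, median 10.43) and H2-DMa (9.34, median 11.26), and high for the hybridisation controls (12.96, median 11.66). MLL-AF1p_801 was low for Ak3 (5.89, median 7.83) and Mllt1 (7.25, median 9.09). MLL-AF1p_810 was high for Hoxb2 (10.40, median 7.60) and low for Fcgr1 (7.5, median 8.41) and Hba-a1 (6.44, median 7.53). Egr1 was high in MLL-AF1p_804 (10.61, median 8.404), and Egln1 was high in MLL-AF1p_805 (10.01, median 9.16).

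In MLL-ENL, MLL-ENL_742 stood out most often. It was high for the eosinophil granule genes Prg2 (13.64, median 8.13) and Epx (9.65, median 7.26) and for Gata2 (11.21, median 9.80). It was low for Egr1 (8.16, median 9.76), Cdkn2c (10.54, median 11.30), Rb1 (10.28, median 10.95), Itgb2 (13.03, median 13.85) and Cfp (11.17, median 12.97). MLL-ENL_774 was low for Icam1 (8.55, median 9.01) and Sod2 (10.79, median 11.30) and high for Nkg7 (11.15, median 8.96). MLL-ENL_701 was low for Rhoj (8.78, median 10.35) and Prtn3 (14.70, median 15.14). MLL-ENL_702 was low for Cd79a (6.00, median 8.03) and high for the 18S signal (10.07, median 8.39). Gphn was high in MLL-ENL_741 (10.12, median 9.42), and Alas2 was high in MLL-ENL_760 (6.70, median 6.14).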

How the results depend on the processing

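The 608 calls were 25 within array set 1 (17 higher, 8 lower), 137 within set 2 (77 higher, 60 lower) and 265 without MLL-AF1p_801 and MLL-AF1p_803 (134 higher, 131 lower). Without single arrays the total ran from 282 to 732, higher genes from 82 to 186 and lower genes from 200 to 603. Higher genes numbered 312 with the values as deposited, 284 after quantile normalization and 248 with array weights, against 153 as reported. Late neutrophil genes called higher (6 as reported) numbered 3 with array weights, 3 within set 1, 1 within set 2, 3 without both arrays and 2 to 7 without single arrays. Lower Ras-ERK feedback genes (2) numbered 1, 0, 1 and 2 to 3 in set 1, in set 2, without both arrays and without single arrays, and lower p53 pathway genes (4) 1, 0, 2 and 3 to 4. Lower phagocyte oxidase and antioxidant genes (4) numbered 1 with only the 16 arrays, 0 within set 1, 1 within set 2, 1 without both arrays and 1 to 5 without single arrays. Fewer mice enter the within-set fits; the cause of the other moves was not tested. Of 82 called named genes 41 kept their call without any 1 array, 40 kept it without both arrays, and 35 kept it in every alternative outside the within-set fits; 0 reversed. All 608 kept their sign in the fits that tested them, except 1 gene with the mean of probe sets and 1 after probe sets of possibly several genes were left out. No paired analysis was possible because the cohorts share no replicate numbers.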
